A study of Rattus norvegicus with 120 samples.

Results

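Immediate early transcription factors were described in rat kidney under cyclosporine (CsA), tacrolimus (FK506), rapamycin (Rapa) and olive oil vehicle. The group was given by name and held 10 genes: Fos, Fosb, Jun, Junb, Egr1, Atf3, Myc, Ier2, Ier3 and Dusp1. Each gene was read from the probe set that mapped to it alone and, where it had several, from the one with the highest mean over all 120 arrays. All 10 had such a probe set (14 in all), among 14217 genes on the array. The 25% of genes with the lowest mean were left out of the tests as dim, which left 10663 genes and 9 of the 10 members. Fosb lay at the 11.1 percentile of gene means and was left out, and Fos lay at the 25.1 percentile, just inside the limit. Ier3 (84.4 percentile), Jun (80.1) and Dusp1 (71.3) were the brightest.

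Immediate early genes are transcribed within minutes of a growth factor, cytokine or stress signal, without new protein synthesis, from promoters on which latent factors such as SRF, the ternary complex factors and CREB already sit. Fos and Fosb pair with Jun or Junb through leucine zippers to form AP-1, Egr1 binds GC-rich sites through zinc fingers, Atf3 is a bZIP factor of the stress response and Myc with Max drives growth genes. Ier2 and Ier3 are further early response genes, and Dusp1 encodes a phosphatase that switches MAP kinases off. In kidney, Fos, Egr1 and Atf3 are known to rise within hours of tubular injury such as ischaemia.

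The series, by its title, sought genomic markers for early detection of calcineurin inhibitor nephrotoxicity. CsA and FK506 block calcineurin, and Rapa, an immunosuppressant of another kind, blocks mTOR. Male Sprague-Dawley rats, 5 to 7 weeks old before treatment, were injected intraperitoneally once a day, and RNA came from pieces of both kidneys taken 24 h after the last dose. There were 7 treatments: CsA 25 mg/kg and 2.5 mg/kg, FK506 6 mg/kg and 0.6 mg/kg, Rapa 10 mg/kg and 1 mg/kg, and vehicle. Each was given for 1, 7, 14 or 28 daily doses, which made 28 groups of 3 to 6 rats with 1 array a rat. Up to day 14 a group held 4 rats, save FK506 6 mg/kg at day 14 (3 rats). At day 28 CsA 25 mg/kg had 4 rats, FK506 0.6 mg/kg and both Rapa doses had 6 each, and the remaining 3 groups had 5 each. Different rats were killed at each day.

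Levels are log2(intensity + 16) after quantile normalization, a change is the difference between the mean levels of 2 groups, and a member was called in a comparison when limma's moderated test gave an adjusted p under 0.05 over all genes tested. On this scale the change of a dim gene is understated. Each array reads a whole piece of kidney, so fewer cells of a type and less RNA per cell cannot be told apart. The tubule markers Umod, Slc34a1 and Lrp2 lay above the array median on 120 of 120 arrays, and the lymphocyte markers Cd3e, Cd8a and Cd79b on 0. Array medians lay between 51.99 and 86.08 in intensity. A single array (CsA 25 mg/kg at day 28, replicate 3) held all 5273 zeros, and none was in a member's probe set. On 4 arrays Alb, a liver gene, had a level above 12.

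The start regions of 3 members are shown because they carry the elements through which such genes are classically switched on. RefSeq's table (assembly GRCr8) held a window of 250 bases before to 50 bases after the start for 5 of the 10 members, Fosb, Junb, Egr1, Ier2 and Dusp1. Capitals in Egr1 mark CArG boxes, the sites bound by SRF, and capitals in Ier2 and Dusp1 mark TGACGTCA, the cyclic AMP response element (CRE) bound by CREB and ATF proteins. The windows lie at chr18:26736828-26737127 (plus strand), chr19:40399123-40399422 (plus strand) and chr10:17184603-17184902 (plus strand).
Egr1: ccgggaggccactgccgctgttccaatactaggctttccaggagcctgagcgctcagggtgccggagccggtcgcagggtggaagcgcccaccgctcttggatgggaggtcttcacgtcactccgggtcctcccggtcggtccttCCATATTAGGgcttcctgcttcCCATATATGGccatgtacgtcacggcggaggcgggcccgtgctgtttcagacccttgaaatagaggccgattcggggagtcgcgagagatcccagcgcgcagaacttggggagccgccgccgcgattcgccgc
Ier2: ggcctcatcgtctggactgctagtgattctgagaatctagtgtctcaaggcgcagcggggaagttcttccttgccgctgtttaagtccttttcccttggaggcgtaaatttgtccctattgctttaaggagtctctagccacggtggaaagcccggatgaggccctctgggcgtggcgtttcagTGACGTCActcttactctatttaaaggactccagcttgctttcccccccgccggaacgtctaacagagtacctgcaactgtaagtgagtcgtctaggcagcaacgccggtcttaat
Dusp1: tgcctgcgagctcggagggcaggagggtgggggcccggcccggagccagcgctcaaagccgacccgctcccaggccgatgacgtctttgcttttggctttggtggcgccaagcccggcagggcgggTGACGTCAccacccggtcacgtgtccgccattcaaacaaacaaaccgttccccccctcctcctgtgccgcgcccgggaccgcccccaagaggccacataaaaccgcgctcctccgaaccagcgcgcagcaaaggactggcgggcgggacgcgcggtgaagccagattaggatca

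Egr1 had 2 CArG boxes, at -105 to -96 and at -83 to -74 from its start, and 1.64% of 33469 promoters of this length held such a box on either strand. Ier2 had a CRE at -66 to -59 and Dusp1 at -124 to -117, a motif found in 1.83% of promoters. The Dusp1 window also held GGGCGG, the Sp1 core, at 3 places (33.1% of promoters held it at least once). TATAAA, searched on both strands, was found in Junb at -49 to -44 and in Fosb on the minus strand (14.2% of promoters). TGANTCA, the AP-1 motif, which overlaps none of these, was in none of the 5 windows (7.33% of promoters), and GCGNGGGCG, the EGR motif, was in none (4.98%). These matches describe letters in a window and say nothing of binding in these kidneys.

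Against vehicle rats of the same day the members rose most under the higher doses of CsA and FK506 after 14 and 28 doses, and Ier3 rose under Rapa 10 mg/kg at day 7 and under both Rapa doses at days 14 and 28. Of 216 pairs of a tested member and a treated group, 34 were called, all higher, in 11 of the 24 groups. Over these groups the share of all genes called ran from 0% to 21.1% (given by group below). Myc was called in 8 groups, Ier3 in 6, Fos and Atf3 in 5 each, Jun and Egr1 in 4 each, Junb and Ier2 in 1 each and Dusp1 in 0. The groups of a day share their vehicle rats, so their changes are not independent of each other. Leaving out any 1 rat of a group of up to 5 ended none of 16 calls, while 18 calls were lost without at least 1 rat, and those rats are named below.

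At day 14, CsA 25 mg/kg raised 6 of the 9 tested members (Fos, Jun, Egr1, Atf3, Myc and Ier2), where 7.89% of all genes were called, 4.75% higher. The median change was 0.96 over the members and -0.01 over all genes tested. At the same day FK506 6 mg/kg raised 5 of 9 (these without Ier2), where 2.68% of all genes were called, 1.24% higher. The median member change there was 0.69. Rapa 1 mg/kg at day 14 raised Fos and Ier3 (9.05% of all genes called, 4.08% higher), and Rapa 10 mg/kg raised Ier3 (10.5% called, 5.19% higher). None was called for CsA 2.5 mg/kg (0.0656% of genes) or FK506 0.6 mg/kg (0.872%), where 1 and 4 members had an unadjusted p under 0.05.

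At day 28 the background was larger. CsA 25 mg/kg raised 6 of 9 members (Fos, Jun, Egr1, Atf3, Myc and Ier3), where 21.1% of all genes were called, 10.5% higher. Under FK506 6 mg/kg the calls were Fos, Jun, Egr1, Atf3 and Myc, 5 of 9 (16% of genes called, 8.73% higher). At the lower FK506 dose, 0.6 mg/kg, Atf3 and Myc rose (4.33% called, 2.59% higher), Rapa 1 mg/kg raised Myc and Ier3 (9.85% called, 4.75% higher) and Rapa 10 mg/kg raised the same pair (15.7% called, 7.57% higher). For CsA 2.5 mg/kg limma called no member, with 0% of all genes called and 1 member at an unadjusted p under 0.05.

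At day 7, FK506 6 mg/kg raised Myc (3.2% of genes called, 1.78% higher) and Rapa 10 mg/kg raised Junb and Ier3 (7.3% called, 3% higher). In the other 4 groups of day 7 limma called no member, with 3.97% of all genes called for CsA 25 mg/kg, 0% for CsA 2.5 mg/kg, 1.93% for FK506 0.6 mg/kg and 4.22% for Rapa 1 mg/kg, and 0, 0, 1 and 1 members at an unadjusted p under 0.05. After a single dose limma called none of the 9 members in any of the 6 treated groups, and no member had an unadjusted p under 0.05 there. Of all genes, 0.675% were called there for CsA 25 mg/kg, 0% for CsA 2.5 mg/kg, 0.0281% for FK506 6 mg/kg, 0% for FK506 0.6 mg/kg, 2.82% for Rapa 10 mg/kg and 3.08% for Rapa 1 mg/kg. The sparse calls of day 7 depended on the vehicle rats chosen. Against the mean of the 4 vehicle groups, chosen after seeing the data, 5 more were called at day 7, among them Atf3 and Jun under FK506 6 mg/kg (0.94, adjusted p = 0.0286, and 0.54, adjusted p = 0.0256), Egr1 under Rapa 10 mg/kg (0.97, adjusted p = 0.0131) and Ier3 under Rapa 1 mg/kg (0.72, adjusted p = 0.0119). Of the Rapa 10 mg/kg rats the median Egr1 level was 8.57 and the highest 10.21, and this gained call was not tested without single rats. Against the vehicle rats of day 7 the Atf3 change was 0.25 (adjusted p = 0.772). With the mean of the 4 vehicle groups the Junb call under Rapa 10 mg/kg was lost (0.51, adjusted p = 0.0546). The member changes at day 1 ran from -0.54 (Atf3, CsA 2.5 mg/kg) to 0.56 (Fos, Rapa 1 mg/kg).

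**Figure D1:**
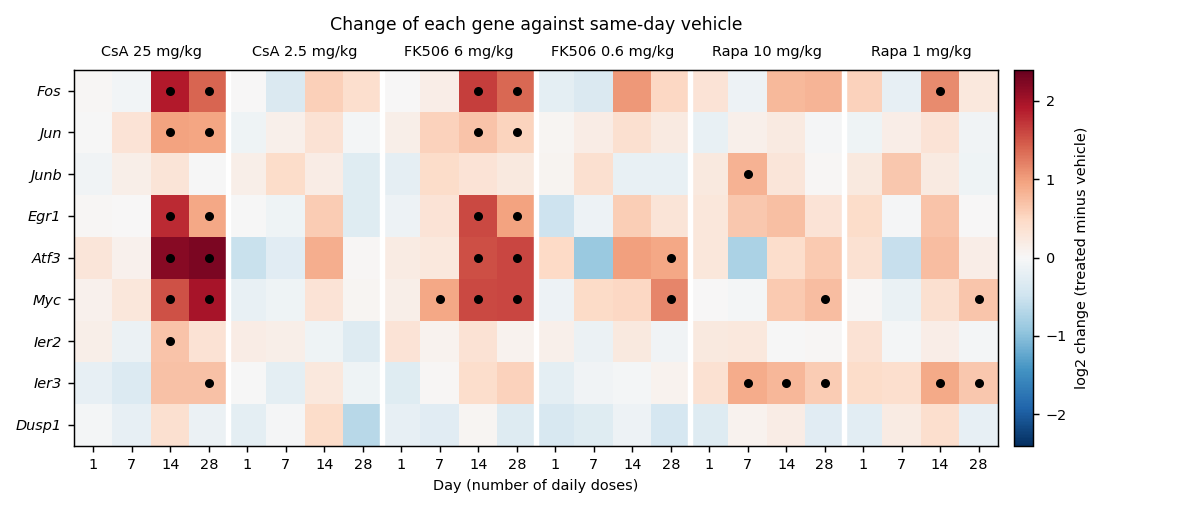
Log2 change of each tested member (rows) against the vehicle rats of the same day in each of the 24 treated groups (columns), as a colour scale, with calls at an adjusted p under 0.05 marked by dots. The calls stand together at days 14 and 28 under CsA 25 mg/kg and FK506 6 mg/kg, and the Ier3 calls are mostly under Rapa.

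Fos, the AP-1 subunit whose RNA is short lived, had its highest mean of the 28 groups under CsA 25 mg/kg at day 14. The 4 rats there had levels of 6.52, 6.56, 7.13 and 7.30, against 4.59, 4.51, 5.46 and 5.33 in the vehicle rats. The groups did not overlap, and Fos rose by 1.91 (SE 0.38, adjusted p = 0.000292). Under FK506 6 mg/kg at day 14 the 3 rats had 6.26, 6.97 and 6.69, all above the same vehicle rats, and Fos rose by 1.67 (SE 0.41, adjusted p = 0.0127). That call was lost without FK506 replicate 2 or vehicle replicate 2, when the adjusted p was at most 0.0608.

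At day 28 Fos levels under CsA 25 mg/kg were 5.86, 7.34, 6.44 and 6.51, against 5.53, 5.27, 4.89, 5.09 and 4.88 in vehicle rats, again with no overlap. Fos rose by 1.40 (SE 0.36, adjusted p = 0.00243). Under FK506 6 mg/kg at day 28 the rats spread widely, at 5.76, 6.77, 7.94, 6.23 and 5.82, yet all 5 lay above the vehicle rats, and Fos rose by 1.37 (SE 0.34, adjusted p = 0.00238). Rapa 1 mg/kg at day 14 gave 6.09, 6.10, 5.76 and 6.45 (change 1.13, SE 0.38, adjusted p = 0.0469). This call was lost without any of its 4 rats or without vehicle replicate 1 or 2, and against the vehicle rats of the other 3 days the change of Fos was 0.61 (adjusted p = 0.209).

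At day 7 Fos was at 6.26, 6.29, 6.10 and 6.57 in FK506 6 mg/kg rats, against 5.59, 7.26, 6.17 and 5.52 in vehicle rats, whose levels were high and spread around those of the treated rats. The lowest group mean of Fos was 4.97 (FK506 0.6 mg/kg at day 1), and vehicle at day 14 had a mean that also rounded to 4.97. Between those ends, no neighbouring groups in the order of Fos means were free of overlap. A dimmer Fos probe set (1371283_at) went with none of this: it was called in no treated group and changed by 0.33 and -0.05 under CsA 25 mg/kg at days 14 and 28, and by 0.14 and -0.30 under FK506 6 mg/kg. The Fos values above rest on 1375043_at alone.

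Jun, the partner of Fos in the classical AP-1 dimer, rose under CsA 25 mg/kg at both later days. At day 14 it had levels of 9.86, 10.10, 10.15 and 10.20, against 8.93, 8.96, 9.21 and 9.36 in vehicle rats. Jun rose by 0.96 (SE 0.18, adjusted p = 0.000113), a fold of 1.95. At day 28 it had 10.09, 10.62, 10.30 and 10.22 under CsA 25 mg/kg, against 9.17, 9.42, 9.36, 9.61 and 9.19 in vehicle rats, a rise of 0.95 (SE 0.17, adjusted p = 1.52e-05). No single rat ended either call, and CsA 25 mg/kg at day 28 was the highest of the 28 group means (10.31).

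Jun also rose under FK506 6 mg/kg, by less. At day 14 the 3 rats had 9.75, 9.92 and 9.76, all above the vehicle rats (change 0.69, SE 0.20, adjusted p = 0.0323). The call was lost without any 1 of these 3 rats or without vehicle replicate 1 or 2, with changes down to 0.63 and an adjusted p up to 0.107. At day 28 the rats had 9.34, 10.19, 10.79, 9.86 and 9.27, so that 3 of 5 lay above all vehicle rats and the groups overlapped (change 0.54, SE 0.16, adjusted p = 0.0136). Without replicate 3 the Jun change was 0.31 (adjusted p = 0.195), and the call was also lost without replicate 2. Of 2 further Jun probe sets, 1369788_s_at was called in the same 4 comparisons and 1374404_at only for CsA 25 mg/kg at day 28 (0.96).

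Junb, an AP-1 subunit that often restrains Jun, was called in 1 group, Rapa 10 mg/kg at day 7. Its levels there were 7.66, 7.70, 8.53 and 7.79, against 7.56, 6.18, 7.26 and 7.35 in vehicle rats (change 0.83, SE 0.23, adjusted p = 0.0134). The groups did not overlap, but vehicle replicate 2 was far below its group and Rapa replicate 3 far above. Without vehicle replicate 2 the change was 0.53 (adjusted p = 0.185), and without Rapa replicate 3 it was 0.63 (adjusted p = 0.105). Over the 24 groups the changes of Junb ran from -0.29 to 0.83, and its highest mean was 7.97, under FK506 6 mg/kg at day 28.

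Fosb, the Fos relative left out as dim, had a mean level of 4.92 over all arrays, near the bottom of the scale. Tested without the dim filter among 14217 genes, it was called in none of the 24 groups against vehicle by limma, and its unadjusted p was under 0.05 in 2. These were CsA 25 mg/kg at day 14 (change 0.69, adjusted p = 0.165) and FK506 6 mg/kg at day 28 (0.59, adjusted p = 0.147). In this fit Fosb was called between drugs once, higher under CsA 25 mg/kg than under Rapa 10 mg/kg at day 14 (0.96, SE 0.29, adjusted p = 0.0219, with 10.4% of the genes called). The levels of Fosb under CsA 25 mg/kg at day 14 were 5.55, 5.24, 5.20 and 5.98, against 4.63, 4.55, 4.79 and 5.24 in vehicle rats. Its highest single level, 6.94, was in a CsA 2.5 mg/kg rat of day 14 (replicate 2).

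Egr1, a zinc finger factor whose start region holds the CArG boxes shown above, rose at day 14 by nearly as much as Fos. Under CsA 25 mg/kg it had levels of 9.38, 9.15, 9.53 and 9.94, against 7.88, 7.54, 7.49 and 7.90 in vehicle rats (change 1.80, SE 0.35, adjusted p = 0.000216). All 4 treated rats lay more than 1 unit above every vehicle rat. Under FK506 6 mg/kg they were 8.86, 10.10 and 8.90 (change 1.58, SE 0.38, adjusted p = 0.0103), with no overlap. The FK506 call rested on replicate 2: without it the Egr1 change was 1.18 (adjusted p = 0.121).

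At day 28 the Egr1 changes were about 1 unit and the groups overlapped. The CsA 25 mg/kg rats had 8.26, 9.29, 9.13 and 8.36, against 8.28, 7.55, 8.04, 7.40 and 7.84 in vehicle rats (change 0.94, SE 0.34, adjusted p = 0.0335). The FK506 6 mg/kg rats had 8.04, 8.88, 9.91, 8.95 and 8.14 (change 0.96, SE 0.32, adjusted p = 0.0244). Both calls were lost without vehicle replicate 2 or 4. The CsA call was also lost without CsA replicate 2 or 3 (lowest change 0.76), and the FK506 call without FK506 replicate 3 or 4 (lowest change 0.68).

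Atf3, a stress-induced bZIP repressor and activator, showed the largest changes of the 9 tested members against vehicle. Under CsA 25 mg/kg its levels were 7.45, 7.73, 7.45 and 7.63 at day 14, against 5.43, 5.16, 6.07 and 4.83 in vehicle rats (change 2.19, SE 0.32, adjusted p = 6.25e-07). At day 28 they were 7.15, 7.98, 7.90 and 7.28, against 5.62, 5.09, 5.06, 5.51 and 5.32 in vehicle rats (change 2.26, SE 0.31, adjusted p = 1.82e-08). These are folds of 4.57 and 4.79 on the offset scale, and no single rat ended either call. The CsA 25 mg/kg groups of days 28 and 14 had the highest means of the 28, at 7.58 and 7.57.

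Atf3 rose under FK506 6 mg/kg as well. At day 14 its levels were 6.76, 7.19 and 6.81, all above the vehicle rats (change 1.55, SE 0.35, adjusted p = 0.00536). At day 28 they were 6.28, 6.96, 8.42, 7.29 and 5.68, a wide spread in which even the lowest rat stood above the highest vehicle rat (change 1.61, SE 0.29, adjusted p = 1.83e-05). The lower dose, FK506 0.6 mg/kg, also gave a call at day 28, with a lowest, median and highest Atf3 level of 6.02, 6.12 and 6.62 in 6 rats (change 0.93, SE 0.28, adjusted p = 0.0325). That call was lost without vehicle replicate 2, 3 or 5. Set against the mean of the 4 vehicle groups the change was 0.52 (adjusted p = 0.119).

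Myc, the growth factor-induced bHLH factor, was called in more groups than any other tested member. At day 14 it had levels of 7.52, 7.69, 7.77 and 7.59 in CsA 25 mg/kg rats, against 6.18, 6.14, 6.09 and 6.04 in vehicle rats, both tight groups. Myc rose by 1.53 there (SE 0.25, adjusted p = 6.38e-06), and under FK506 6 mg/kg, at 7.52, 7.86 and 7.71, by 1.59 (SE 0.27, adjusted p = 8.56e-05). At day 28 CsA 25 mg/kg rats had 7.66, 8.44, 8.09 and 8.02, against 6.56, 5.83, 5.69, 5.83 and 6.44 in vehicle rats. This was the largest change of Myc, 1.98 (SE 0.23, adjusted p = 3.1e-10), and 8.05 was the highest of its 28 group means.

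Myc levels under FK506 6 mg/kg at day 28 were 7.42, 7.78, 8.79, 7.51 and 6.88 (change 1.60, SE 0.22, adjusted p = 5.35e-08), with no overlap with vehicle. At 0.6 mg/kg the lowest, median and highest level were 6.73, 7.18 and 7.81 (change 1.17, SE 0.21, adjusted p = 0.000215). It had the lowest adjusted p of the 6 calls at lower doses and was kept without any 1 vehicle rat. Already at day 7 Myc rose under FK506 6 mg/kg, with 7.68, 7.29, 7.28 and 7.28 against 6.09, 6.95, 6.06 and 6.73 in vehicle rats (change 0.93, SE 0.25, adjusted p = 0.0206). That call was lost without FK506 replicate 1 or vehicle replicate 1 or 3.

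Under Rapa at day 28 Myc rose by 0.75 at 10 mg/kg (SE 0.21, adjusted p = 0.00794) and by 0.67 at 1 mg/kg (SE 0.21, adjusted p = 0.027), and both groups overlapped the vehicle rats. The call at 1 mg/kg was lost without vehicle replicate 2, 3 or 4. The lowest of the 28 Myc means was vehicle at day 28 (6.07). A vehicle rat of that day, replicate 1, had 6.56, above the lowest rat of each Rapa group.

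**Figure D2:**
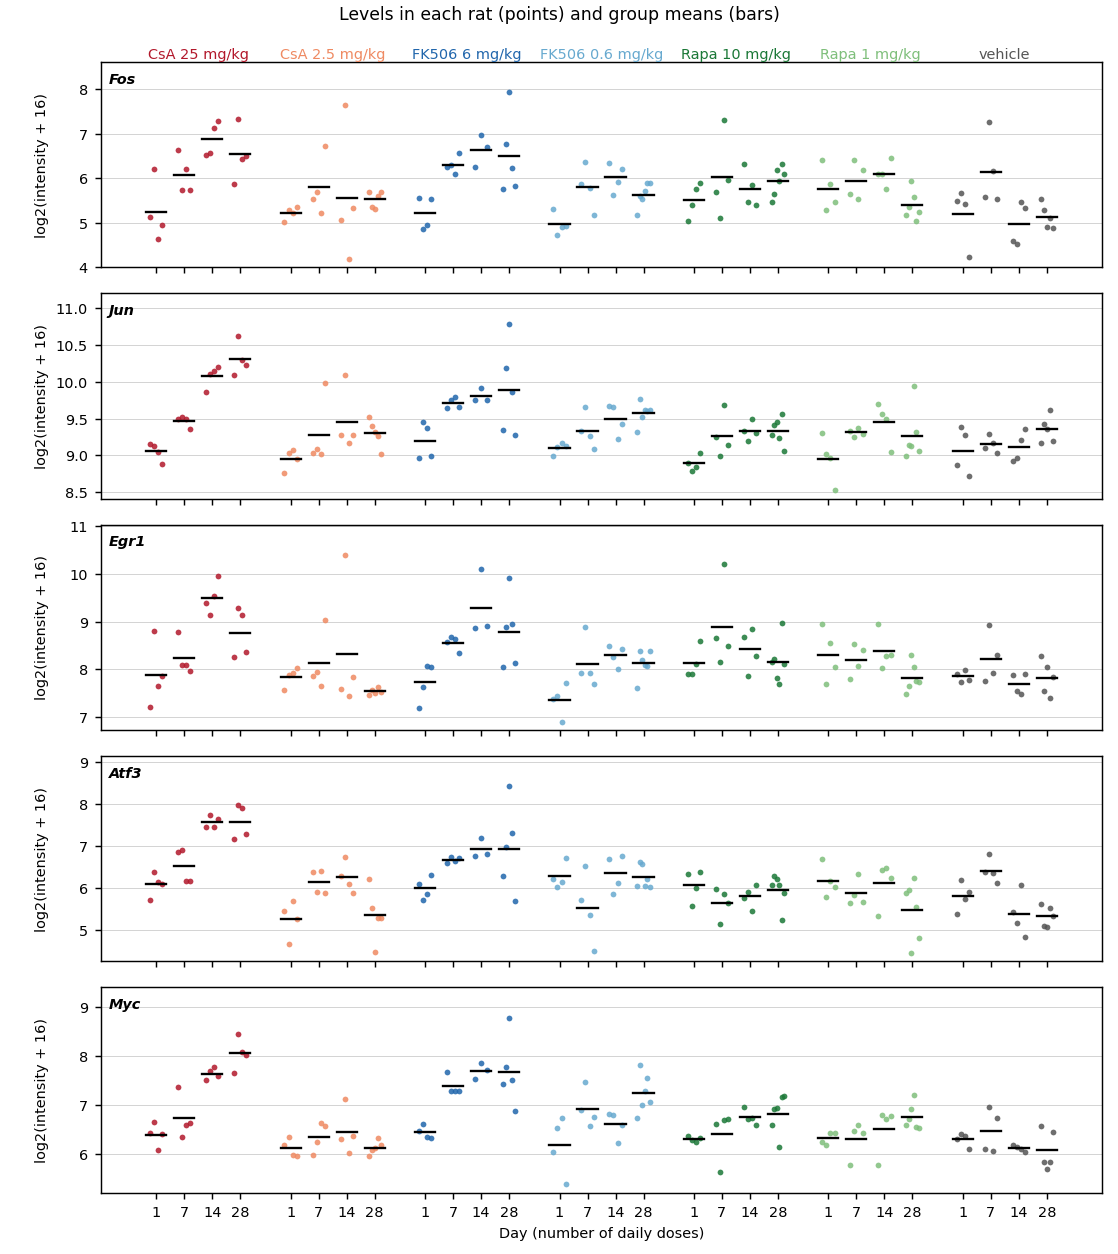
Levels of Fos, Jun, Egr1, Atf3 and Myc (log2(intensity + 16), 1 panel each) in each rat (points) with group means (bars), by treatment and day. CsA 25 mg/kg and FK506 6 mg/kg climb over the vehicle levels at days 14 and 28, and single rats such as CsA 2.5 mg/kg day 14 replicate 2 (Egr1 10.39) stand far above their groups.

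Ier2, an early response gene whose promoter CRE is printed above, was called against vehicle in 1 group. Its levels under CsA 25 mg/kg at day 14 were 7.92, 8.10, 7.96 and 8.32, against 7.62, 7.66, 6.74 and 7.55 in vehicle rats (change 0.68, SE 0.18, adjusted p = 0.00976). The groups did not overlap, but vehicle replicate 3 lay far below the others. Without it the change of Ier2 was 0.46 (adjusted p = 0.128), and without CsA replicate 4 the call was lost as well.

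Ier3, a stress-induced gene linked to cell survival, was called under Rapa at 3 of the 4 days. Rapa 10 mg/kg at day 7 gave levels of 10.65, 10.73, 10.94 and 10.58, against 9.46, 10.12, 9.93 and 9.85 in vehicle rats (change 0.88, SE 0.24, adjusted p = 0.0124). This group had the highest Ier3 mean of all 28. At 1 mg/kg the day 7 change of Ier3 was 0.40 (adjusted p = 0.409). At day 14 Rapa 10 mg/kg rats had 10.39, 10.27, 10.32 and 10.20 and Rapa 1 mg/kg rats 10.19, 10.20, 10.47 and 10.79, against 9.49, 9.79, 9.38 and 9.37 in vehicle rats. Neither Rapa group overlapped the vehicle rats (change 0.79, SE 0.24, adjusted p = 0.0218 at 10 mg/kg, and 0.91, SE 0.24, adjusted p = 0.00872 at 1 mg/kg).

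At day 28 Ier3 rose by 0.61 under Rapa 10 mg/kg (adjusted p = 0.0299), by 0.64 under Rapa 1 mg/kg (adjusted p = 0.0319) and by 0.71 under CsA 25 mg/kg (SE 0.23, adjusted p = 0.0164). The CsA 25 mg/kg rats of day 28 had 9.79, 10.24, 10.22 and 10.00, against 9.16, 9.06, 9.65, 9.27 and 9.61 in vehicle rats, with no overlap. All 6 Ier3 calls were lost without at least 1 rat. These rats were vehicle replicate 1 for Rapa 10 mg/kg at day 7, vehicle replicate 3 or 4 or Rapa replicate 1 or 3 for Rapa 10 mg/kg at day 14, and Rapa replicate 4 for Rapa 1 mg/kg at day 14. At day 28 they were vehicle replicate 1, 2 or 4 for both Rapa doses, and vehicle replicate 2 or CsA replicate 2 or 3 for CsA 25 mg/kg.

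The Gapdh 3-prime to 5-prime ratio, a measure of RNA quality, averaged 0.397 on the log2 scale in Rapa 10 mg/kg rats of day 7 and 0.764 in vehicle rats of that day. With this ratio in the model the change of Ier3 there was 0.67 (adjusted p = 0.135).

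Dusp1, the MAP kinase phosphatase whose promoter held a CRE and 3 Sp1 cores, was called in none of the 24 groups by limma. Its changes ran from -0.66 (CsA 2.5 mg/kg at day 28) to 0.45 (CsA 2.5 mg/kg at day 14), with an adjusted p of at least 0.301. Under CsA 25 mg/kg at day 14, where 6 members rose, its levels were 9.27, 8.82, 9.19 and 9.28, against 8.64, 8.87, 8.61 and 8.94 in vehicle rats, and the groups overlapped. Vehicle rats of day 28 spread from 8.41 to 9.80. A dimmer Dusp1 probe set (1368147_at) was called for Rapa 1 mg/kg at day 7 (0.88, adjusted p = 0.0439, in a fit of every probe set).

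**Figure D3:**
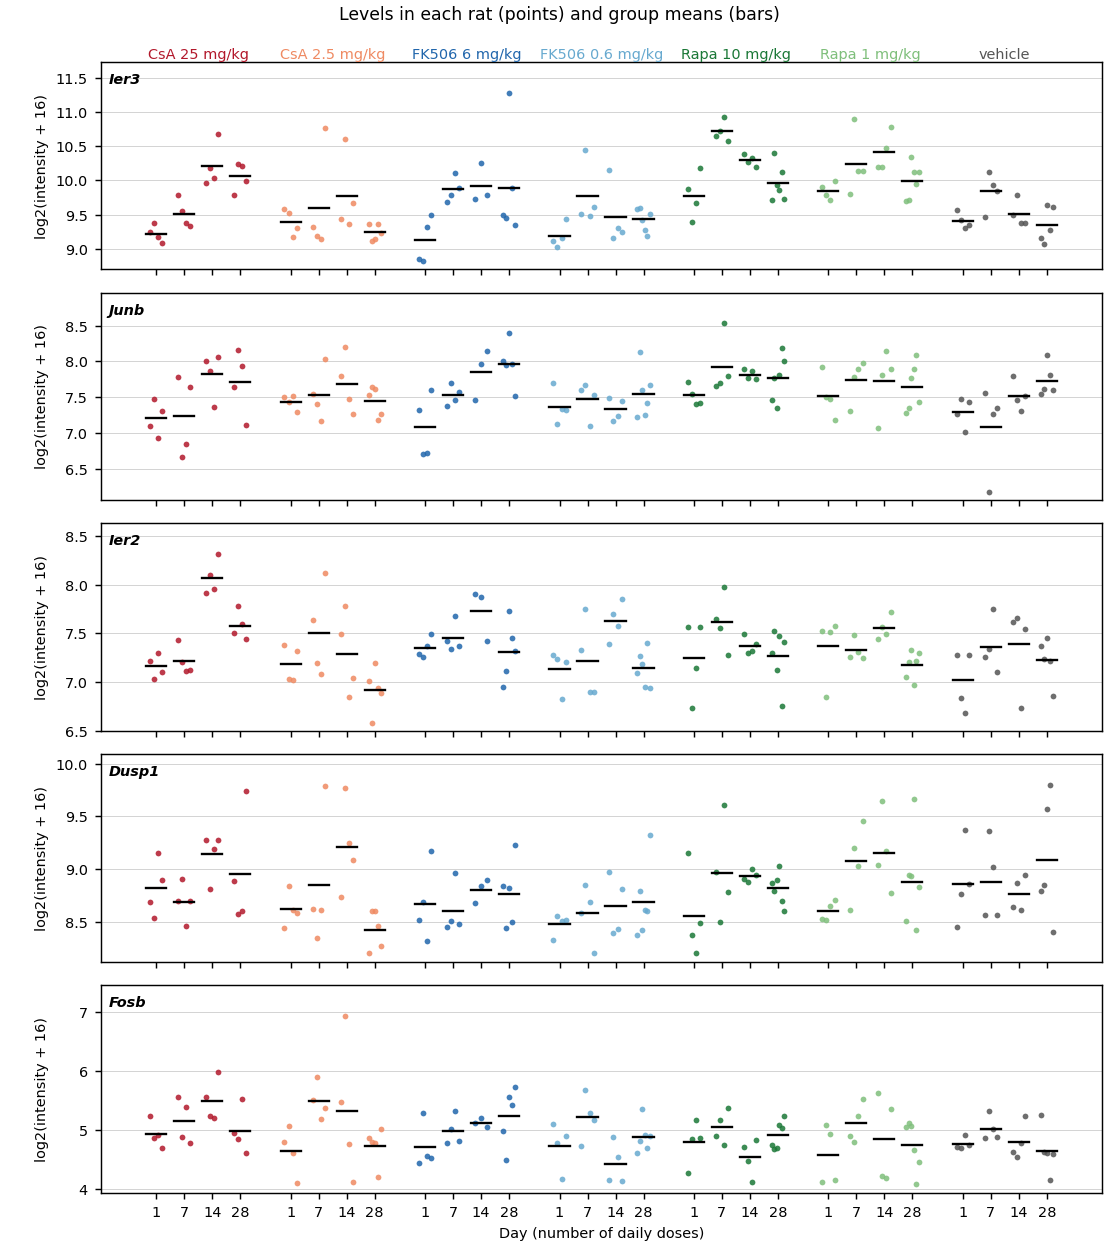
Levels of Ier3, Junb, Ier2, Dusp1 and Fosb (log2(intensity + 16), 1 panel each) in each rat (points) with group means (bars), by treatment and day. Ier3 is highest under Rapa 10 mg/kg at day 7, and Dusp1 levels overlap between treatments and vehicle.

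Markers of myeloid cells, kidney tubule, liver and blood differed from vehicle in some groups with calls and in some without. Of 9 tested myeloid markers (10 listed), 6 were called higher for CsA 25 mg/kg at day 14, where 4.75% of all genes were called higher. For CsA 25 mg/kg at day 28 it was 9 (8 without the array with zeros), with 10.5% of all genes higher. For FK506 6 mg/kg at day 28 it was 6 (5 without FK506 replicate 3), with 8.73% of all genes higher. At CsA 25 mg/kg day 7, where no member was called, 5 were higher (2.17% of all genes higher). At FK506 6 mg/kg day 14, where 5 members rose, 0 were called in either direction (2.68% of all genes called). Under Rapa at day 14, 4 markers were lower at 10 mg/kg and 5 at 1 mg/kg (5.3% and 4.97% of all genes lower).

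The summed intensity of the myeloid markers had a lowest, median and highest value of 11750, 12920 and 14860 in CsA 25 mg/kg rats of day 14, 6181, 8354 and 8585 in FK506 6 mg/kg rats and 7093, 7628 and 8234 in vehicle rats of that day. At day 28 these were 8348, 9782 and 16000 under CsA 25 mg/kg, 9085, 10680 and 15720 under FK506 6 mg/kg and 6184, 6621 and 7879 under vehicle. At day 14 the FK506 6 mg/kg rats overlapped the vehicle rats in this sum, with a median above the highest vehicle rat.

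The summed intensity of 8 tubule markers was lower than in vehicle, with no overlap, in all 4 groups in which 5 or 6 members rose. This sum was also lower, with no overlap, in several groups with fewer calls or none (below). At day 14 it lay between 44760 and 48400 under CsA 25 mg/kg and between 43830 and 49120 under FK506 6 mg/kg, against 54700 to 64630 under vehicle. At day 28 it lay between 41150 and 44400 under CsA 25 mg/kg and between 43320 and 47280 under FK506 6 mg/kg, against 51710 to 57720 under vehicle. Of the 8 markers 4 fell under CsA 25 mg/kg at day 28 (3 without the array with zeros), where 10.7% of all genes were called lower. In each of the other 3 groups in which 5 or 6 members rose, 3 fell. There 3.14% of all genes were lower for CsA at day 14, and 1.44% and 7.29% for FK506 at days 14 and 28. Calb1, which encodes calbindin, changed by -2.60 and -3.39 under CsA and by -2.66 and -3.04 under FK506 at days 14 and 28, all called lower. With no member called, the tubule sum was 49400 to 53430 under CsA 25 mg/kg at day 1 (vehicle 56480 to 58860). At day 7 it was 44890 to 46200 (vehicle 53340 to 62130). Under FK506 0.6 mg/kg it was 47340 to 49720 at day 7 and 44140 to 48540 at day 14, again without calls. FK506 6 mg/kg at day 7 (46120 to 47400, 1 call) and FK506 0.6 mg/kg at day 28 (45890 to 49780, 2 calls) also lay below vehicle.

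The sum of 8 liver markers was 9982 to 10580 in FK506 6 mg/kg rats of day 14, against 4930 to 6874 in vehicle rats, with no overlap. Of the 6 tested there 1 rose, the fibrinogen chain Fgb (3.08, adjusted p = 0.0214), and Cyp2e1 changed by 0.67 (adjusted p = 0.0628). Cyp2e1 lay above the array median on 120 of 120 arrays, with a level of at least 10.92. The other liver markers did so on between 2 (Tat) and 49 (Apob) arrays. The liver sum also exceeded vehicle, without overlap, under FK506 0.6 mg/kg at day 14 (7048 to 9501, no member called) and both FK506 doses at day 7. Under Rapa at day 14 it lay below vehicle, at 2566 to 3856 for 10 mg/kg and 2373 to 4853 for 1 mg/kg. Both Rapa doses at day 28 were below vehicle too. CsA 25 mg/kg at days 14 and 28 and FK506 6 mg/kg at day 28 overlapped vehicle. The sum of 2 blood markers (Hbb and Alas2) lay above vehicle (2335 to 3700) without overlap in 3 groups of day 28. These were Rapa 10 mg/kg (4761 to 9297), Rapa 1 mg/kg (4210 to 9719) and FK506 0.6 mg/kg (3923 to 8039). It was also higher for CsA 2.5 mg/kg at day 14 (no calls, 5401 to 7050, vehicle 3959 to 5210). At day 7 it was lower under CsA 25 mg/kg (1492 to 1885) and FK506 6 mg/kg (1203 to 2086) than under vehicle (4507 to 6507). The part of myeloid, tubule, liver or blood RNA in the member results was not tested, nor whether the liver markers came from liver.

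The level of the hybridization controls averaged 9.147 ± 1.041 (SD, n = 5) in FK506 6 mg/kg rats of day 28 and 10.67 ± 0.0561 (n = 5) in vehicle rats. With this level in the model 3 of the 5 members stayed called in that group, and Jun (0.42, adjusted p = 0.194) and Egr1 (0.87, adjusted p = 0.165) did not. Rapa 1 mg/kg rats of day 28 also had low hybridization controls (9.663 ± 1.196, n = 6), and their Myc (0.58, adjusted p = 0.134) and Ier3 (0.65, adjusted p = 0.0762) calls were lost with this level in the model. So was the Atf3 call of FK506 0.6 mg/kg at day 28 (0.87, adjusted p = 0.0549).

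The drugs were compared directly at their higher doses, 25 mg/kg of CsA, 6 mg/kg of FK506 and 10 mg/kg of Rapa. These doses differ in mg/kg, so the comparisons are of treatments as given. CsA and FK506, a cyclic peptide and a macrolide that both end in calcineurin inhibition, gave no call between them in the 9 tested members at any of the 4 days by limma (0.694%, 0.938%, 1.97% and 5.7% of all genes were called at days 1, 7, 14 and 28). At an unadjusted p under 0.05 there were 0, 1, 0 and 2 members. The intervals show what this leaves possible. At day 14 the 95% interval of CsA minus FK506 was -0.04 to 1.34 for Atf3, -0.58 to 1.06 for Fos, -0.54 to 0.97 for Egr1, -0.12 to 0.66 for Jun and -0.59 to 0.47 for Myc.

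At day 28 the interval was 0.05 to 1.26 for Atf3 (difference 0.65, adjusted p = 0.244) and 0.07 to 0.76 for Jun (difference 0.42, adjusted p = 0.161). For Myc it was -0.09 to 0.85 and for Fos -0.69 to 0.75. Without FK506 replicate 3, the rat with the highest levels of its group, Jun (0.64, adjusted p = 0.00903) and Atf3 (1.03, adjusted p = 0.0217) were called higher under CsA. At day 7 Myc differed by -0.65 (interval -1.15 to -0.16, adjusted p = 0.285).

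Set against Rapa 10 mg/kg, CsA 25 mg/kg gave 6 calls of 9 at day 14, all higher under CsA (14.7% of all genes called, 8% higher). Atf3 differed by 1.77 (SE 0.32, adjusted p = 2.11e-05), Fos by 1.13 (adjusted p = 0.0327), Egr1 by 1.08 (adjusted p = 0.0252), Myc by 0.89 (adjusted p = 0.00714), Jun by 0.75 (adjusted p = 0.00189) and Ier2 by 0.70 (adjusted p = 0.00438). None of these 6 pairs of groups overlapped, which in genes already called adds no separate test. The Fos call was lost without CsA replicate 3 or 4 or Rapa replicate 2, 3 or 4, and the Egr1 call without CsA replicate 3 or 4 or Rapa replicate 2 or 4. At day 28, where 19.9% of all genes were called and 10.4% higher, Atf3 (1.63, SE 0.29, adjusted p = 1.81e-05), Myc (1.24, SE 0.23, adjusted p = 2.22e-05) and Jun (0.98, SE 0.17, adjusted p = 5.28e-06) were higher under CsA.

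Set against Rapa 10 mg/kg, FK506 6 mg/kg had Atf3 (1.12, adjusted p = 0.0262) and Myc (0.95, adjusted p = 0.0132) higher under FK506 at day 14 (9.41% of all genes called, 4.84% higher). At day 28 (11% called, 6.83% higher) Atf3 (0.97, adjusted p = 0.0107), Myc (0.86, adjusted p = 0.0032) and Jun (0.56, adjusted p = 0.00931) were higher. All 3 groups overlapped at day 28, and all 3 calls were lost without FK506 replicate 3, when the changes were 0.60, 0.58 and 0.33. All 3 were also lost with the hybridization control level in the model, with differences of 0.63 for Atf3 (adjusted p = 0.355), 0.71 for Myc (adjusted p = 0.116) and 0.44 for Jun (adjusted p = 0.216). At day 14 the Atf3 call was lost without any 1 of the FK506 rats or Rapa replicate 3, and the Myc call without FK506 replicate 2.

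At day 7 the order of Ier3 was turned, with 9.78, 9.55, 9.37 and 9.33 under CsA 25 mg/kg and 9.69, 9.78, 10.12 and 9.88 under FK506 6 mg/kg, against 10.65, 10.73, 10.94 and 10.58 under Rapa 10 mg/kg. Ier3 was lower under CsA by -1.22 (SE 0.24, adjusted p = 0.000195, with 9.43% of all genes called and 3.46% lower) and under FK506 by -0.86 (SE 0.24, adjusted p = 0.0165, with 6.44% called, 4.09% higher and 2.35% lower). Junb was also lower under CsA than under Rapa (-0.68, adjusted p = 0.043), while Atf3 (1.02, adjusted p = 0.0383) and Myc (0.98, adjusted p = 0.00665) were higher under FK506 than under Rapa. The FK506 calls of day 7 were lost without 1 rat each: Ier3 without FK506 replicate 1 or Rapa replicate 3, Myc without Rapa replicate 2 and Atf3 without any 1 FK506 rat or Rapa replicate 2 or 4. The Junb call was lost without CsA replicate 2 or 3 or Rapa replicate 2, 3 or 4. After a single dose limma called no member for CsA or FK506 against Rapa (6.64% and 1.56% of all genes called, 1 member each at an unadjusted p under 0.05). Over the 12 comparisons, 19 of 108 pairs were called, 16 higher in the drug named first and 3 lower. The share of all genes called ran from 0.694% to 19.9% over them.

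**Figure D4:**
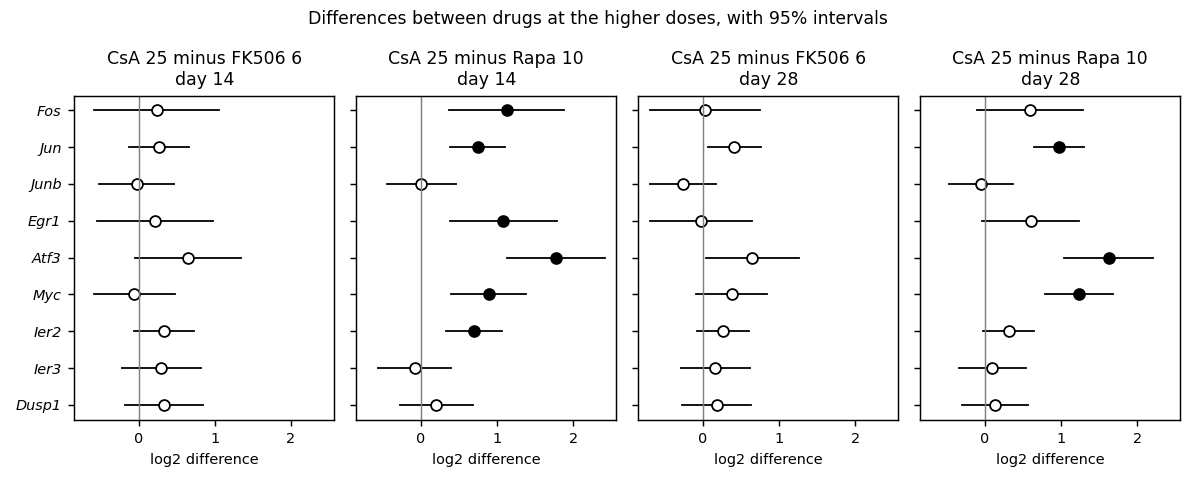
Difference in level between drugs at their higher doses (log2, points, filled where called) with 95% intervals, for the 9 tested members. The panels show CsA minus FK506 and CsA minus Rapa at days 14 and 28. Intervals of CsA minus FK506 mostly include 0, and Atf3, Myc and Jun lie above 0 for CsA minus Rapa at days 14 and 28.

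Between the doses of a drug, calls came for CsA at days 14 and 28. The higher against the lower CsA dose gave 6 calls of 9 at day 14 (5.57% of all genes called, 3.85% higher) and 7 of 9 at day 28 (18.4% called, 8.75% higher), all higher at the higher dose. At day 28 Atf3 differed by 2.23 (SE 0.31, adjusted p = 3.09e-08), Myc by 1.93 (adjusted p = 8.83e-10), Egr1 by 1.22 (adjusted p = 0.00513), Fos by 1.01 (adjusted p = 0.0393), Jun by 1.00 (adjusted p = 7.86e-06), Ier3 by 0.82 (adjusted p = 0.00597) and Ier2 by 0.66 (adjusted p = 0.00367). No pair of groups overlapped, which adds no separate test either, as these genes were already called. Egr1 began at 8.26 in CsA 25 mg/kg rats, against a tight 7.46, 7.57, 7.51, 7.63 and 7.52 at the lower dose. The Fos call was lost without CsA 25 mg/kg replicate 2, 3 or 4 or CsA 2.5 mg/kg replicate 2, 3 or 4.

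At day 14 the doses differed in Atf3 (1.32, adjusted p = 0.00494), Fos (1.33, adjusted p = 0.023), Myc (1.19, adjusted p = 0.000684), Egr1 (1.18, adjusted p = 0.0298), Ier2 (0.78, adjusted p = 0.00352) and Jun (0.62, adjusted p = 0.0254). The lower-dose group held 1 rat, replicate 2, with Fos at 7.65, Jun at 10.09 and Egr1 at 10.39, above or among the CsA 25 mg/kg rats, so these 3 genes overlapped between doses. Their calls were lost without any of CsA 2.5 mg/kg replicates 1, 3 and 4 or CsA 25 mg/kg replicates 3 and 4, and for Jun also replicate 2. Fos, Jun and Egr1 at day 14 and Fos at day 28 also lost their calls without the 4 arrays with Alb above 12, of which CsA 2.5 mg/kg held 1 at each of these days. At days 1 and 7 limma called no member between CsA doses (0.6% and 2.55% of all genes called, 1 and 0 members at an unadjusted p under 0.05).

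Between FK506 doses limma called no member, with 0%, 0.00938%, 0.0844% and 1.62% of all genes called at days 1, 7, 14 and 28 and 0, 2, 3 and 7 members at an unadjusted p under 0.05. All 9 FK506 changes of day 28 were positive. Between Rapa doses limma called no member either, with 0%, 0%, 0% and 0.122% of all genes called and 0, 1, 0 and 0 members at an unadjusted p under 0.05.

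Vehicle rats of days 7, 14 and 28 were set against those of day 1, and limma called 0 of 27 pairs (3.89%, 0.366% and 2.08% of all genes called). In each of the 3 comparisons 1 member had an unadjusted p under 0.05.

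The change of an effect with the number of doses was tested as a difference of differences, the effect against vehicle after 14 or 28 doses minus that after 1 dose. Under CsA 25 mg/kg Jun (0.97, SE 0.26, adjusted p = 0.0386), Atf3 (1.91, SE 0.46, adjusted p = 0.0193) and Myc (1.43, SE 0.35, adjusted p = 0.0214) had larger effects at day 14 (0.853% of all genes called, 0.544% higher). At day 28 (4.97% called, 2.83% higher) these 3 genes did too, Jun by 0.97 (adjusted p = 0.0113), Atf3 by 1.97 (adjusted p = 0.00284) and Myc by 1.89 (adjusted p = 0.000117). Under FK506 6 mg/kg the effect at day 28 exceeded that at day 1 for Atf3 (1.41, adjusted p = 0.0468) and Myc (1.46, adjusted p = 0.00574), where 3.3% of all genes were called, 1.89% higher. Both FK506 calls were lost with the hybridization control level in the model (Atf3 1.08, adjusted p = 0.257, and Myc 1.32, adjusted p = 0.0537). Of the 4 CsA 25 mg/kg rats of day 1, 2 had Alb levels above 12, and without the 4 such arrays of the series 3 of these 8 calls stayed. The CsA calls of day 14 were lost for Jun, Atf3 and Myc without vehicle replicate 2 of day 1, and for Jun and Myc without CsA replicate 3 or 4 of day 1, the arrays with high Alb. The Jun call was also lost without vehicle replicate 3 of day 1, vehicle replicate 1, 2 or 3 of day 14 or CsA replicate 2, 3 or 4 of day 14. The Atf3 call of FK506 was lost without any 1 of the 4 FK506 rats of day 1, FK506 replicate 2, 3 or 4 of day 28, vehicle replicate 2, 3 or 4 of day 1 or vehicle replicate 2, 3 or 5 of day 28. None was called for FK506 at day 14 (0.141% of genes, 5 members at an unadjusted p under 0.05) or for Rapa 10 mg/kg (2.02% and 5.54%, 0 and 1 members).

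Other immediate early genes, from a list of 55 of which 47 were tested, were set beside the members. For CsA 25 mg/kg 15 were called higher and 1 lower at day 14 (median change 0.44 over the list and -0.01 over all genes), and 13 higher and 2 lower at day 28 (12 and 1 without the array with zeros). For FK506 6 mg/kg the counts were 3 and 0 at day 14 and 11 and 1 at day 28, or 7 and 2 without FK506 replicate 3. For Rapa 10 mg/kg they were 5 and 0 at day 14 and 6 and 0 at day 28. At day 14 these calls were 34% of the list under CsA, 6.38% under FK506 and 10.6% under Rapa, against 7.89%, 2.68% and 10.5% of all genes. At day 28 they were 31.9%, 25.5% and 12.8%, against 21.1%, 16% and 15.7% of all genes, so that under Rapa the list lay near or below the share of all genes.

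Klf6, a zinc finger factor induced by injury, rose by 1.70 and 1.80 under CsA 25 mg/kg at days 14 and 28 and by 1.24 and 1.34 under FK506 6 mg/kg. Rhob, a small GTPase, rose by 0.89 and 1.04 under CsA and by 0.80 and 0.81 under FK506 at the same days, and by 0.84 under Rapa 10 mg/kg at day 14. Nfkbiz (1.15 and 1.47) and Nfkbia (0.83 and 0.78) rose under CsA at both days, and the C/EBP factor Cebpd rose by 1.14 at day 28. Ptgs2, cyclooxygenase 2, went against the list. It fell by 1.48 after a single dose of CsA 25 mg/kg and by 1.17 at day 14, and under FK506 6 mg/kg it fell by 1.74 at day 1, by 1.66 at day 7 and by 0.98 at day 28.

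Of 22 tested dimer partners and cofactors of the members (the list shares some genes, such as Maff, with the list above), 5 were higher and 0 lower for CsA 25 mg/kg at day 14, and 2 higher and 2 lower at day 28 (2 and 0 without the array with zeros). These were 22.7% and 18.2% of the list, against 7.89% and 21.1% of all genes. Atf4, a bZIP factor of the amino acid and unfolded protein response, rose by 0.49 and 0.61 under CsA at days 14 and 28, by 0.46 under FK506 6 mg/kg at day 28 and by 0.28 under Rapa 10 mg/kg at day 28. Atf5 rose by 0.62 after a single CsA dose. Maff, a small Maf protein, rose by 1.10 under CsA at day 14 and by 1.05 under Rapa 10 mg/kg. Of 20 tested upstream kinases and factors 1 was called, higher, for each of CsA 25 mg/kg and FK506 6 mg/kg at day 14, Nras (0.64 and 0.67). Of all genes, 7.89% and 2.68% were called there. At day 28 the counts were 4 higher and 3 lower under CsA (3 and 1 without the array with zeros) and 3 higher and 0 lower under FK506 (35% and 15% of the list, against 21.1% and 16% of all genes).

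The genes whose means over the 28 groups ran most like the mean of the 9 tested members were Tgif1 (Pearson's r = 0.929), Pvr (0.903), Rasd1 (0.892), Klf6 (0.892), Rhob (0.876), Cldn4 (0.867), Birc3 (0.864), Lcn2 (0.862), S100a10 (0.861) and Mideas (0.858). These are descriptions over 28 points of which groups of a day share handling. Among the members themselves the r with the mean of the other 8 was 0.92 for Egr1, 0.903 for Fos, 0.83 for Jun, 0.8 for Myc, 0.748 for Ier2 and 0.728 for Atf3. It was lower for Ier3 (0.584), Junb (0.555) and Dusp1 (0.389).

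Some of the members also went together from rat to rat within a group. With each group's mean taken off, the level of Fos over the 120 rats had its highest r among 10662 other genes with Egr1 (0.779), followed among the members by Jun (0.614, place 3), Ier3 (0.571, place 4) and Myc (0.542, place 9). Further down were Atf3 (0.363, place 92), Ier2 (0.319, place 164), Junb (0.298, place 214) and Dusp1 (0.262, place 335). The closest non-members were Rasd1 (0.62), Cebpd (0.555), Nr4a1 (0.553), Klf6 (0.552) and Pvr (0.548). Over the 36 pairs of tested members the median r was 0.356, 8 pairs were over 0.5 and 0 were under 0. The lowest was that of Atf3 with Dusp1 (0.0747). Spearman's rho, which uses ranks, was lower in the closest pairs, at 0.631 for Fos with Egr1 and 0.403 for Fos with Ier3. For Jun with Ier3 it was 0.327, against a Pearson's r of 0.512. No median over pairs of other genes was computed. Rats of a group share a treatment and a day, and each rat's genes share 1 array, so these r values carry no test.

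**Figure D5:**
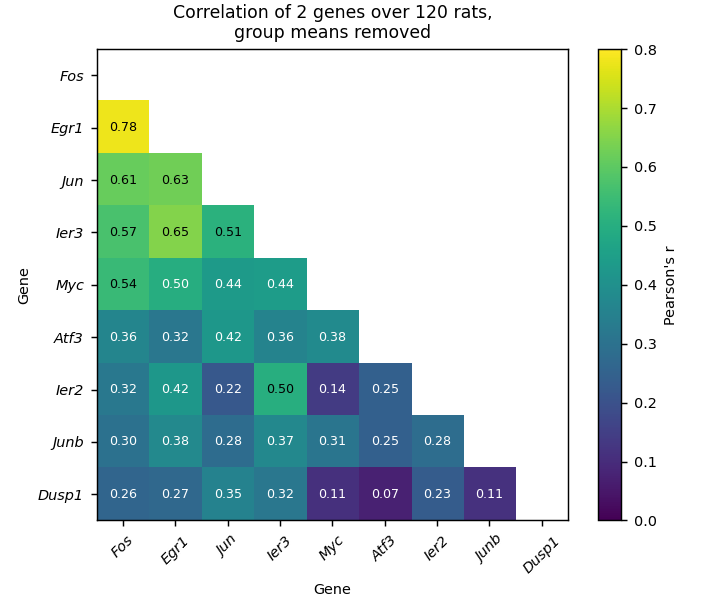
Pearson's r between the levels of each pair of tested members over 120 rats after each group's mean was taken off, as a colour scale with the value in each cell. Fos, Egr1 and Jun form the most alike block, with r = 0.779 for Fos and Egr1, and Atf3 with Dusp1 is lowest at 0.0747.

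A few rats carried high levels of many members at once. Counting for each of the 10 members its 12 highest rats of 120, 42 rats appeared at least once and 10 rats appeared for 5 members or more. Of these 10, CsA 25 mg/kg gave 5, at day 14 replicates 2, 3 and 4 and at day 28 replicates 2 and 3. To these FK506 6 mg/kg added replicate 2 of day 14 and replicate 3 of day 28. The remaining 3 stood alone in groups with few or no calls: CsA 2.5 mg/kg replicate 2 at day 14 (8 members) and replicate 4 at day 7 (7 members), and Rapa 10 mg/kg replicate 3 at day 7 (6 members). In the CsA 2.5 mg/kg group of day 14 the high rat had Egr1 at 10.39, against 7.45 to 7.84 in the 3 other rats, and Ier3 at 10.61, against 9.36 to 9.67.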

How the data were processed

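Kidney RNA of 120 rats was hybridised to Affymetrix rat genome arrays, 1 a rat. The deposited table holds linear intensities, and how the authors summarised probes and scaled arrays is not given in the sources used here; per the labels' protocols, cRNA was made in a one-cycle protocol and arrays were scanned with Affymetrix software. Precision is set by how many rats each group held. The labels do not say whether rats of a group were handled apart, so p-values measure the spread between these rats.

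An offset of 16 was added, log2 taken and quantile normalization applied. Probe sets were named from the platform annotation: 20826 carried 1 gene symbol, 436 several. All 120 arrays entered 1 linear model with a mean for each group (limma 3.58.1, R 4.3.3, 92 residual and 2.96 prior degrees of freedom, no trend), two-sided, with Benjamini-Hochberg adjustment over 10663 genes in each of 57 comparisons. The code was run on simulated data with independent normal errors and known changes in 1 group. Those data held no outlying rats or array differences, so they do not bear on single calls. Other probe sets came from a fit of all 31099.

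The members and the lists were chosen with earlier results of these data known. Besides the members, the rule named up to 6 genes a list (most calls at the higher doses, then largest change), the 10 genes most like the members over group means and the 5 closest to Fos within groups. Alternatives were normalization, offset, dim filter, probe set choice, trend, arrays fitted, left-out rats (not in groups of 6, nor Rapa 1 mg/kg at day 1) and 2 quality covariates. Promoter letters came from RefSeq.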

Additional observations from a re-analysis of the deposited data

Results flagged for a closer look

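Of 270 pairs of a member and a group of 4 to 6 rats, 21 held a rat whose gap to the nearest other rat was large for the range of its group (Dixon's criterion), where chance gives about 1 in 20. They are given as levels, with no explanation. Fos was 4.22 in replicate 4 of vehicle day 1 (the other rats 5.42 to 5.66). Fosb was 5.30 in replicate 2 of FK506 6 mg/kg day 1 (the other rats 4.44 to 4.57) and 4.21 in replicate 4 of CsA 2.5 mg/kg day 28 (the other rats 4.78 to 5.01). Jun was 9.98 in replicate 4 of CsA 2.5 mg/kg day 7 (the other rats 9.01 to 9.08), 9.36 in replicate 4 of CsA 25 mg/kg day 7 (the other rats 9.50 to 9.52), 10.09 in replicate 2 of CsA 2.5 mg/kg day 14 (the other rats 9.17 to 9.28) and 9.94 in replicate 4 of Rapa 1 mg/kg day 28 (the other rats 8.99 to 9.31). Junb was 8.53 in replicate 3 of Rapa 10 mg/kg day 7 (the other rats 7.66 to 7.79). Egr1 was 8.79 in replicate 1 of CsA 25 mg/kg day 7 (the other rats 7.97 to 8.10) and 10.39 in replicate 2 of CsA 2.5 mg/kg day 14 (the other rats 7.45 to 7.84). Myc was 7.68 in replicate 1 of FK506 6 mg/kg day 7 (the other rats 7.28 to 7.29), 5.62 in replicate 2 of Rapa 10 mg/kg day 7 (the other rats 6.60 to 6.71) and 5.76 in replicate 1 of Rapa 1 mg/kg day 14 (the other rats 6.71 to 6.79). Ier2 was 6.83 in replicate 3 of FK506 0.6 mg/kg day 1 (the other rats 7.21 to 7.28), 6.85 in replicate 2 of Rapa 1 mg/kg day 1 (the other rats 7.52 to 7.58) and 6.74 in replicate 3 of vehicle day 14 (the other rats 7.55 to 7.66). Ier3 was 10.76 in replicate 4 of CsA 2.5 mg/kg day 7 (the other rats 9.14 to 9.32), 10.45 in replicate 2 of FK506 0.6 mg/kg day 7 (the other rats 9.48 to 9.61), 10.16 in replicate 1 of FK506 0.6 mg/kg day 14 (the other rats 9.16 to 9.30) and 11.29 in replicate 3 of FK506 6 mg/kg day 28 (the other rats 9.35 to 9.89). Dusp1 was 8.96 in replicate 3 of FK506 6 mg/kg day 7 (the other rats 8.45 to 8.50).

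The effect against vehicle differed between days in 8 cases, by the test of the difference of differences. Under CsA 25 mg/kg the effect at day 14 exceeded that at day 1 by 0.97 for Jun, 1.91 for Atf3 and 1.43 for Myc, and the effect at day 28 exceeded it by 0.97 for Jun, 1.97 for Atf3 and 1.89 for Myc. Under FK506 6 mg/kg the effect at day 28 exceeded that at day 1 by 1.41 for Atf3 and 1.46 for Myc. Without the 4 arrays with Alb above 12, of which 2 were CsA 25 mg/kg rats of day 1, 3 of the 8 were called.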

How the results depend on the processing

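No paired analysis was possible because the replicate numbers were given in accession order and pair no rats. No called change turned its sign under any alternative. With 50% of the genes left out as dim, Fos, Fosb, Atf3, Myc and Ier2 were not tested, by construction, and the counts were 16 against vehicle (34 in the fit reported), 7 between drugs (19), 5 between doses (13) and 2 for the change of effect (8). At day 14 and at day 28 alike, CsA 25 mg/kg then had 3 calls and FK506 6 mg/kg had 2, and all 29 calls of the members still tested were kept. The change of effect gave 5 calls with the probe set of largest variance, which changes the probe set of Jun and Dusp1, and 3 without the 4 arrays with Alb above 12. For these arrays the cause was not tested. FK506 6 mg/kg at day 14 gave 2 calls when only the arrays of that day were fitted (fewer arrays), and at day 28 it gave 3 with the hybridization control level as a covariate. An offset of 1 put Fos under the dim limit. Leaving out each rat in turn (98 fits) gave 27 to 36 calls against vehicle, 10 to 14 between doses, 16 to 19 between drugs, 0 to 0 between vehicle days and 4 to 11 for the change of effect. It gave 5 to 7 for CsA 25 mg/kg at day 14, 4 to 6 at day 28, 2 to 5 for FK506 6 mg/kg at day 14 and 3 to 6 at day 28. Of the 74 calls in all, 74 were kept with an intensity trend, 71 without the array with zeros, 70 without quantile normalization, 70 with the Gapdh ratio as a covariate, 69 without a dim filter, 65 without the Alb arrays, 64 with the hybridization control covariate, 59 with every probe set kept apart and 54 with only the arrays of the days compared. With the mean of the 4 vehicle groups in place of same-day vehicle, chosen after seeing the data, 31 of 34 calls were kept and 8 were gained, 5 of them at day 7. Against the vehicle rats of the other days, also chosen after seeing the data, 13 of 14 calls of day 14 were kept, all but Fos under Rapa 1 mg/kg. Fos, Atf3 and Fosb lie low on the scale, where the signal over background limits what can be seen.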
